A study of Mus musculus with 9 samples.

Results

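The fibril-forming and fibril-associated collagens of cartilage were followed as 7 genes: Col2a1, which encodes type II collagen, Col9a1, Col9a2 and Col9a3 of type IX, Col11a1 and Col11a2 of type XI, and Col27a1 of type XXVII. They were chosen by name from the deposited table of 43548 mouse gene identifiers. Each member was present in 1 row, and all 7 were among the 18714 genes with a mean level of at least 0.5 FPKM (fragments per kilobase of transcript, scaled to the number of mapped fragments) that were tested. RNA had been sequenced from E14.5 embryos of an Msx2-Cre by CAGF8 cross, with 3 libraries from each of 3 tissues. In the MCAGF8 cranial vault, Msx2-Cre, which acts in the head surface ectoderm and not in the skull mesenchyme beneath it, had switched on the CAGF8 allele, an Fgf8b transgene under the CAG promoter behind a stop cassette at Rosa26. Embryos that lacked Cre, and so carried the same allele with its stop cassette in place, gave both control tissues, the cranial vault and the cartilage of the cranial base. The labels give these controls as wildtype and the strain of all samples as mixed. The skin was peeled off before the vault was taken, and the base cartilage was taken from control embryos after the vault. RNA from 3 tissue samples was pooled for each library, so each SD below is between pools. An error marked SE is the limma standard error of a difference between groups. How the control embryos, which gave both vault and base, were assigned to pools is not stated.

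Type II collagen makes up most of the thin fibrils of hyaline cartilage, where it is the main structural protein and resists tension. Type XI collagen sits within these fibrils and limits their diameter, and type IX collagen, a heterotrimer of the products of its 3 genes, decorates their surface and links them to other matrix. Type XXVII collagen is a further fibril-forming collagen of cartilage. Bone and dermis instead build their fibrils mainly from types I, III and V, and the vault bones normally form without a cartilage template.

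The 3 control base libraries did not resemble each other. Across all tested genes their pairwise correlations on the log2 scale were 0.904 to 0.947, against 0.970 to 0.974 in the control vault and 0.959 to 0.980 in the MCAGF8 vault. The 12 skeletal muscle genes examined summed to 11677, 1846 and 4970 FPKM in control base libraries 1, 2 and 3, and the 12 skin epidermis genes to 596, 122 and 797 FPKM. The 14 partners of these collagens in cartilage matrix summed to 1139, 5482 and 927 FPKM in the same order, so base library 2 was the one rich in cartilage transcripts and libraries 1 and 3 were rich in muscle and epidermal transcripts. The labels give all 3 as cranial base and were kept. For libraries 1 and 3 the cartilage collagens and most matrix partners do not bear out a cartilage sample like library 2, and what tissue these libraries hold is not settled here, so each base value below depends on that. Both vault groups differed in marker lists as well. Muscle genes summed to 963 to 6099 FPKM in the control vault and 55.8 to 223 FPKM in the MCAGF8 vault, and epidermis genes to 35.3 to 122 FPKM and 445 to 1095 FPKM. All 8 osteoblast genes were lower in the MCAGF8 vault than in the control vault (median -2.55 on the log2 scale). Ifitm5, Dmp1, Phospho1 and Sp7 had a limma adjusted p under 0.1 in the fit to all 9 libraries, beside 0.604% of all tested genes. All 8 genes of the hypertrophic cartilage list, several of which bone also expresses, were lower too (median -1.37), and 3 were under the same threshold: Ibsp, with means of 1231 and 24.9 FPKM, Spp1 and Mef2c. None of the genes of these lists was at 0 in all 9 libraries. The part of such differences in tissue makeup in the results below was not tested, and in bulk tissue fewer cartilage cells and less RNA per cell cannot be told apart. Fgf8 itself was at 3.01 to 13.5 FPKM in the control vault, 9.43 to 19.5 FPKM in the MCAGF8 vault and 3.78 to 17.4 FPKM in the base, with all groups overlapping. The deposited FPKM carry no read counts, so the depth of each library is unknown.

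**Figure D1:**
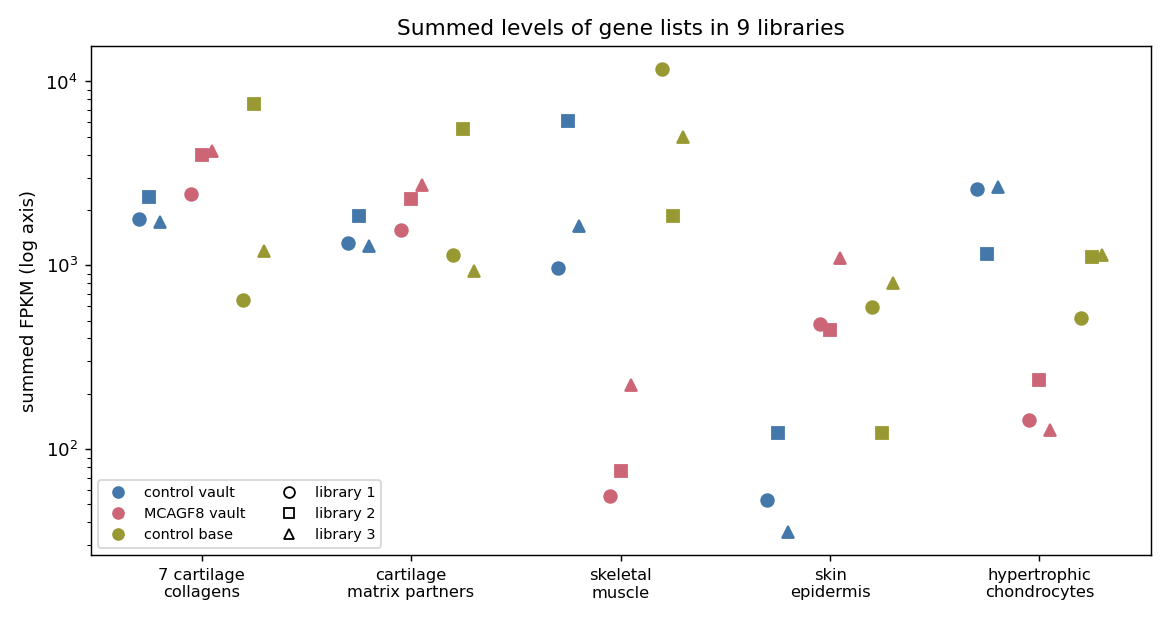
Summed FPKM of 5 gene lists on a log axis, 1 symbol per library, coloured by group and shaped by library number. Control base library 2 stands highest for the 7 cartilage collagens (7533 FPKM) and the matrix partners (5482 FPKM), and base libraries 1 and 3 stand high for muscle and epidermis genes.

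The members lie on 6 chromosomes and are not one cluster. In GENCODE M21 on GRCm38, Col2a1 is at chr15:97975602-98004695 on the minus strand and the others are on the plus strand. Col9a1 is at chr1:24177610-24252684, Col9a2 at chr4:121039385-121055322, Col9a3 at chr2:180597790-180622189, Col11a1 at chr3:114030540-114220718, Col11a2 at chr17:34039437-34066685 and Col27a1 at chr4:63214004-63334991. Their merged exon lengths run from 3095 bases in Col9a2 to 12744 in Col11a1 and 13022 in Col27a1. Exons of Col9a3 share 234 bases with Tcfl5 on the other strand, and Tcfl5 averaged 3.66 FPKM over the libraries.

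The RefSeq promoter table (GRCm38.p6) held 6 entries for 5 of the 7 members, and Col2a1 and Col9a3 had none. Shown here are the 250 bases before the start given in that table for Col9a1 and for both type XI genes. Col9a1 was one of the members most like Col2a1 over the libraries, and the type XI genes were less like it. Each window is read 5′ to 3′ with matches to GGGCGG (the GC box) and TATAAA (the TATA box), on either strand, in capitals. Col9a1 is from chr1:24177360-24177609, Col11a1 from chr3:114030290-114030539 and Col11a2 from chr17:34038888-34039137, all on the plus strand and free of annotated exons.
Col9a1: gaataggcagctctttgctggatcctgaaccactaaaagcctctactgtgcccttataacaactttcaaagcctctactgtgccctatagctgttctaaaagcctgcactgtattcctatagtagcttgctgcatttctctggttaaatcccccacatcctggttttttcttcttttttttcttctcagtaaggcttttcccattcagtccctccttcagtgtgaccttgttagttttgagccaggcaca
Col11a1: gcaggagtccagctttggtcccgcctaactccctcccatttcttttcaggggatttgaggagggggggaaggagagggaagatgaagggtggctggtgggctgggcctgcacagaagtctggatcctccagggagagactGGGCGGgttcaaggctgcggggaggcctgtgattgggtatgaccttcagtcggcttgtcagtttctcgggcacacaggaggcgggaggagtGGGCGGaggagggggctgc
Col11a2: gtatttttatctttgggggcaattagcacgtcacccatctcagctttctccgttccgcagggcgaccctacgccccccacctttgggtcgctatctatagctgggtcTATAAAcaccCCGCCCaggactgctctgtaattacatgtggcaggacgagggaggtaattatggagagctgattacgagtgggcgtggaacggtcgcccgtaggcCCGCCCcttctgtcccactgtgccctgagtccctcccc
GGGCGG was found in 4 of the 6 member entries (Col11a1, Col27a1, Col9a2 and Col11a2), beside 32.7% of the 32851 promoters in the table, and TATAAA in 1 of them (Col11a2), beside 12.4%. Neither AACAAT nor ACAAAG, short words that SOX proteins can bind, occurred in any of the 6, beside 9.42% and 16.5% of all promoters. The pair of Col9a1 entries held none of the 4 motifs. The Col11a2 window held 2 matches to GGGCGG and 1 to TATAAA, the latter 143 bases before the end of the window. That window ends at 34039137, ahead of the GENCODE start of Col11a2 at 34039437. A match or its absence describes these windows only.

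Within a library the 7 transcripts kept nearly the same order of level per length. Col9a3 stood first and Col2a1 second in 7 of 9 libraries, with Col2a1 first in base libraries 1 and 2. Col11a2 was sixth and Col27a1 last in all 9. Col9a1, Col9a2 and Col11a1 changed places among ranks 3 to 5, and in the control vault their means of 269 ± 96.0, 267 ± 35.9 and 286 ± 41.2 FPKM (SD, n = 3) differed by less than their spread. The members were abundant transcripts: in base library 2 Col2a1 ranked 9 and Col9a3 ranked 34 among all genes, whereas in base library 1 they ranked 1273 and 1562. Together the 7 genes took 0.153 to 0.231% of all FPKM in the control vault, 0.287 to 0.494% in the MCAGF8 vault, and 0.0494%, 0.950% and 0.107% in base libraries 1, 2 and 3.

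**Figure D2:**
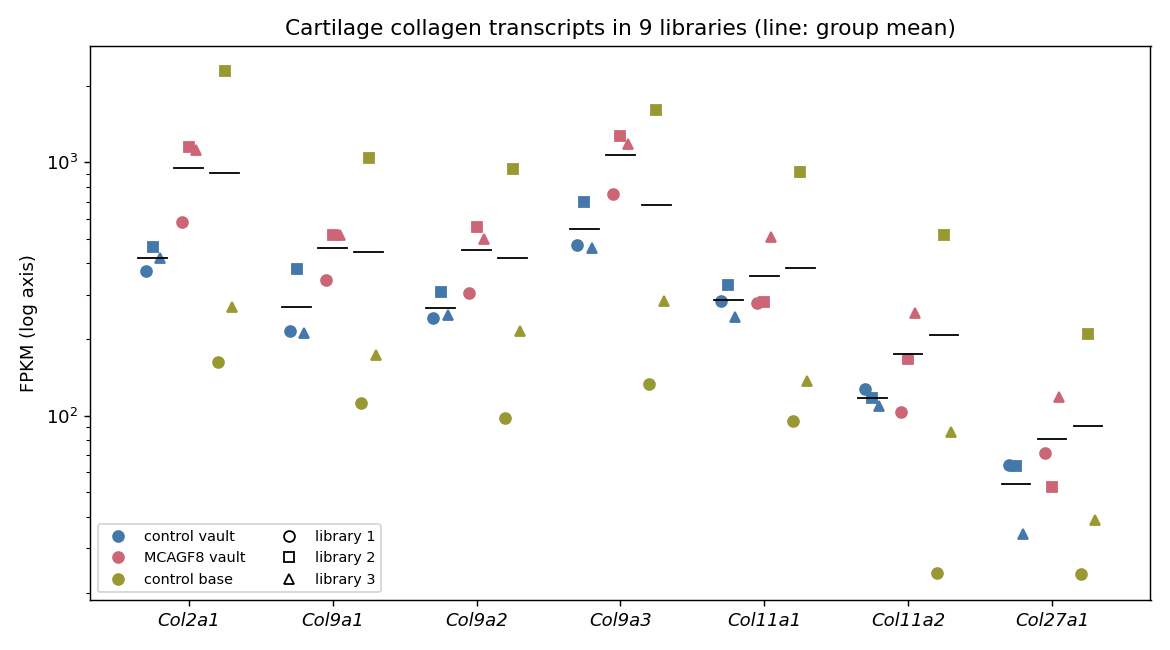
FPKM of each member on a log axis in all 9 libraries, coloured by group and shaped by library number, with a line at each group mean. For every member base library 2 is the highest of the 9 points, and the MCAGF8 points lie wholly above the control vault points for Col2a1 and Col9a3 only.

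Col2a1, the gene of the main cartilage collagen, was at 373, 462 and 421 FPKM in control vault libraries 1, 2 and 3, at 583, 1146 and 1114 FPKM in the MCAGF8 vault, and at 163, 2292 and 268 FPKM in the base. All MCAGF8 libraries exceeded all control vault libraries, and the base libraries lay on both sides of both vault groups. The MCAGF8 mean was 2.26-fold the control vault mean (948 ± 316 against 419 ± 44.4 FPKM).

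Among the type IX genes, Col9a3 gave the same picture, with 473, 699 and 460 FPKM in the control vault, 752, 1273 and 1182 FPKM in the MCAGF8 vault and 134, 1611 and 283 FPKM in the base. Its vault groups did not overlap, although control vault library 2 came within 1 SD of MCAGF8 library 1. The MCAGF8 mean was 1.97-fold the control vault mean. Col9a1 was at 215, 379 and 211 FPKM in the control vault, 344, 519 and 517 FPKM in the MCAGF8 vault and 112, 1042 and 174 FPKM in the base. MCAGF8 library 1 lay below control vault library 2, so these groups overlapped, at 1.71-fold between means. Col9a2 was at 243, 308 and 249 FPKM in the control vault, 304, 554 and 498 FPKM in the MCAGF8 vault and 98.2, 943 and 216 FPKM in the base. It too overlapped, by the narrow margin between MCAGF8 library 1 and control vault library 2, at 1.69-fold between means.

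The type XI genes were closer between the vaults. Col11a1 was at 285, 328 and 246 FPKM in the control vault, 278, 282 and 509 FPKM in the MCAGF8 vault and 95.03, 918 and 137 FPKM in the base. MCAGF8 libraries 1 and 2 fell inside the control range and only library 3 lay above it, at 1.25-fold between means. Col11a2 was at 127, 118 and 109 FPKM in the control vault, 104, 167 and 254 FPKM in the MCAGF8 vault and 24.0, 517 and 86.0 FPKM in the base. MCAGF8 library 1 lay below every control vault library and the other two above, at 1.48-fold between means. Col27a1 was the lowest member, at 63.8, 63.5 and 34.0 FPKM in the control vault, 71.4, 52.2 and 119 FPKM in the MCAGF8 vault and 23.6, 211 and 38.9 FPKM in the base. MCAGF8 library 2 fell inside the control range, at 1.501-fold between means.

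2 of the 7 members therefore had MCAGF8 libraries wholly above control vault libraries, beside 9.90% of all tested genes. In limma fitted to log2(FPKM + 1) in all 9 libraries, where calls needed both an unadjusted p under 0.05 and an adjusted p (Benjamini-Hochberg, over all tested genes) under 0.1, all 7 members had a positive MCAGF8 vault minus control vault difference and 0 were called, beside 0.604% of all genes. The differences were 1.12 for Col2a1 (SE 0.81), 0.96 for Col9a3, 0.80 for Col9a1, 0.72 for Col9a2, 0.55 for Col27a1, 0.47 for Col11a2 and 0.26 for Col11a1, where the median of all tested genes was -0.0088. The adjusted p ran from 0.969 to 0.986, and 0 members had an unadjusted p under 0.05. The 95% confidence interval of Col2a1 reached from -0.69 to 2.93 and that of Col11a1 from -1.31 to 1.84. These intervals take their spread from all 3 groups, the base included, where the SD of the members on the log2 scale was 1.66 to 2.22, against 0.11 to 0.52 in the control vault and 0.34 to 0.64 in the MCAGF8 vault.

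With limma fitted to the 6 vault libraries alone, the same differences had smaller errors. Col2a1 then had a difference of 1.12 (SE 0.28, unadjusted p 0.00526, adjusted p 0.168) and Col9a3 of 0.96 (SE 0.27, unadjusted p 0.0090, adjusted p 0.204). Col9a1 and Col9a2 also had an unadjusted p under 0.05, with adjusted p of 0.302 and 0.292, and Col11a1, Col11a2 and Col27a1 did not. The 4 of 7 members higher at an unadjusted p under 0.05 stood beside 5.80% of all genes in that fit, and again 0 were called, beside 1.45% of all genes. Libraries also differed in how FPKM depended on transcript length, and Col11a1 and Col27a1 are the longest members. The slope of log2 FPKM on log2 exon length across genes was 0.261, 0.195 and 0.137 in the control vault, 0.279, 0.174 and 0.288 in the MCAGF8 vault and -0.0136, 0.296 and 0.178 in the base. With that slope as a covariate in limma, the MCAGF8 vault minus control vault difference was 0.72 for Col2a1 and 0.57 for Col9a3, and turned to -0.14 for Col11a1 and -0.052 for Col11a2. The other 5 members stayed positive, the longest, Col27a1 (13022 exon bases), among them. Col11a2 (6874 exon bases) is shorter than Col2a1 (9243). The part of transcript length in these sign changes was not tested.

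Against the base, the direction depended on which base libraries were read. In control base library 2 all 7 members were higher than in every MCAGF8 library, and in base libraries 1 and 3 all 7 were lower than in every MCAGF8 library. That pattern held in 2.71% of all tested genes, and base library 2 was the highest of the 9 libraries in 16.3% of them. Over the mean of the other base libraries, base library 2 was 10.6-fold higher for Col2a1, 9.40-fold for Col11a2, and between 5.99-fold (Col9a2) and 7.92-fold (Col11a1) for the rest. Over the MCAGF8 mean it was 2.95-fold higher for Col11a2 and 1.51-fold for Col9a3, the extremes of the 7.

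The limma fit to all libraries gave 7 positive MCAGF8 vault minus control base differences, from 0.38 for Col27a1 to 1.40 for Col9a3 (adjusted p 0.335 to 0.820), and 0 members called, beside 8.39% of all genes. Between the control tissues, 4 members had a positive and 3 a negative base minus vault difference, all within -0.43 (Col9a3) to 0.17 (Col27a1), and 0 were called, beside 3.06% of all genes. Neither comparison had a member at an unadjusted p under 0.05. Without base library 2, limma called 7 of 7 members higher in the MCAGF8 vault than in the base, by 1.3005 (Col27a1, adjusted p 0.0528) to 2.41 (Col9a3, adjusted p 0.00497) on the log2 scale. In that fit 24.5% of all genes were called between these groups, 6.33% of all genes as higher. It also called Col9a3 (-1.45) and Col11a1 (-1.31) lower in the base than in the control vault, beside 7.17% of all genes called and 2.07% called lower. Without base libraries 1 and 3, a removal chosen after the marker levels had been seen, all 7 differences from the MCAGF8 vault turned negative, from -0.63 (Col9a3) to -1.65 (Col11a2), with 0 called and 6 at an unadjusted p under 0.05, beside 15.9% of all genes. In that fit 5 members were called higher in the base than in the control vault, by 2.46 for Col2a1, 2.12 for Col11a2, 2.01 for Col9a1, 1.83 for Col9a2 and 1.69 for Col11a1, beside 4.17% of all genes called and 2.40% called higher, and the lone base library was assumed to vary like the vault libraries.

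**Figure D3:**
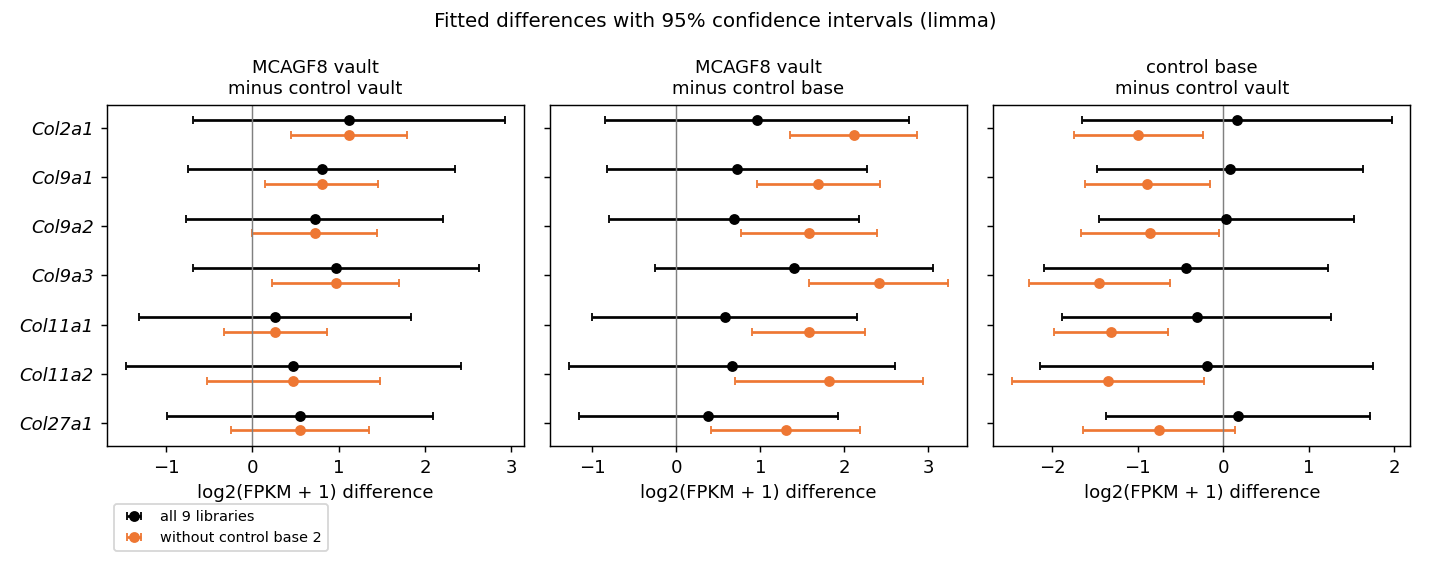
Differences in log2(FPKM + 1) with 95% confidence intervals from limma for the 7 members in 3 comparisons, with all libraries (black) and without control base library 2 (orange). All black intervals cross 0, and without base library 2 all 7 intervals of the MCAGF8 vault minus control base lie above 0.

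Ratios between members within a library do not change when all cartilage transcripts of the library rise or fall together. In the base, where Col2a1 spanned 14.1-fold between libraries, the ratios of the other 6 members to Col2a1 had an SD of 0.27 to 0.56 on the log2 scale. The levels of the members there had an SD of 1.66 to 2.22. In the vaults the ratios were not steadier throughout. Their SD was 0.092 to 0.56 in the control vault, against 0.11 to 0.52 for levels. In the MCAGF8 vault it was 0.11 to 0.77, against 0.34 to 0.64 for levels. 11 ratios were compared between the groups in 3 comparisons by two-sided exact permutation tests of 3 against 3 libraries, whose smallest possible p is 0.1. The adjusted p of every ratio at that smallest value was 0.3 over the 33 tests, so no ratio passed a threshold, and whether groups overlapped is given instead.

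The ratio of Col9a3 to Col9a2, 2 chains that assemble into the same type IX trimer, separated all 3 groups. It was 1.94, 2.27 and 1.84 in the control vault, 2.47, 2.30 and 2.38 in the MCAGF8 vault and 1.36, 1.71 and 1.31 in the base. Every MCAGF8 library lay above every control vault library, if only just for MCAGF8 library 2, and every control vault library above every base library. The log2 ratio differed by 0.24 between the vaults, by 0.72 between the MCAGF8 vault and the base and by -0.47 between the base and the control vault (exact permutation p 0.1 for each, adjusted 0.3). This was the only 1 of the 21 pairs of members that kept the 3 groups apart. Set against Col9a2, 0.0428% of the tested genes, Col9a3 among them, kept the groups apart in this order. Col9a2 and the order were fixed after the ratio had been seen, so this share is not the rate for a search over 21 pairs. The 3 base libraries had the lowest Col9a3 to Col9a2 ratios of the 9. In contrast, Col9a1 to Col9a2 ranged from 0.802 to 1.23 over the 9 libraries, with all groups overlapping and log2 differences of 0.04 to 0.08.

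The base also stood apart in the ratio of Col9a3 to Col2a1, at 1.27, 1.51 and 1.09 in the control vault, 1.29, 1.11 and 1.06 in the MCAGF8 vault and 0.823, 0.703 and 1.06 in the base. All base libraries lay below both vault groups, the margin to MCAGF8 library 3 being within rounding (log2 difference -0.59 from the control vault, exact permutation p 0.1, adjusted 0.3). The vault groups overlapped in this ratio (log2 difference -0.15, exact permutation p 0.5, adjusted 0.786). With 3 libraries per group, overlap does not show that the proportion was the same in both.

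The type XI transcripts were lower against Col2a1 in the MCAGF8 vault. Col11a1 to Col2a1 was 0.763, 0.711 and 0.584 in the control vault, 0.478, 0.246 and 0.457 in the MCAGF8 vault and 0.584, 0.401 and 0.510 in the base. The MCAGF8 libraries all lay below the control vault libraries (log2 difference -0.85), and the base libraries also lay below them (-0.47), by a margin within rounding, while overlapping the MCAGF8 vault. Col11a2 to Col2a1 was 0.341, 0.255 and 0.259 in the control vault and 0.178, 0.146 and 0.228 in the MCAGF8 vault, without overlap (log2 difference -0.64), and Col9a2 to Col2a1 also lay wholly lower (-0.40). The exact permutation p was 0.1 for each of these 4 differences, adjusted 0.3. The 3 of 6 members stood beside 64.2% of all other tested genes, whose ratio to Col2a1 was likewise lower in every MCAGF8 library, so the pattern was shared with most genes and is not particular to them. The 2 libraries with the lowest Col11a1 ratio in their vault group, control vault 3 and MCAGF8 vault 2, also had the lowest slope on exon length in that group, and the part of that slope was not tested. The same libraries had the lowest ratio of Col27a1 to Col2a1, 0.0808 and 0.0455, where the other 7 libraries ran from 0.0920 to 0.171 and all groups overlapped.

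Within type XI, Col11a1 to Col11a2 ranged from 1.59 to 3.96 with all groups overlapping, and the lowest and highest of these values were both base libraries. Col11a1 to Col5a1, a close relative that codes for a type V chain, was 0.877 to 1.62 in 8 libraries and 6.89 in base library 2. The ratio of Col2a1 to Col1a1, the cartilage against the bone and skin fibril, was 0.102, 0.173 and 0.108 in the control vault, 0.231, 0.430 and 0.530 in the MCAGF8 vault and 0.325, 3.65 and 0.265 in the base. Both the MCAGF8 vault and the base lay wholly above the control vault, by 1.60 and 2.46 on the log2 scale (exact permutation p 0.1, adjusted 0.3), base libraries 1 and 3 included. In base libraries 1 and 3 Col2a1 itself, at 163 and 268 FPKM, was below every control vault library (373 to 462 FPKM). Col1a1 was also low there, at 500.4 and 1013 FPKM against 2664 to 3913 FPKM in the control vault.

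**Figure D4:**
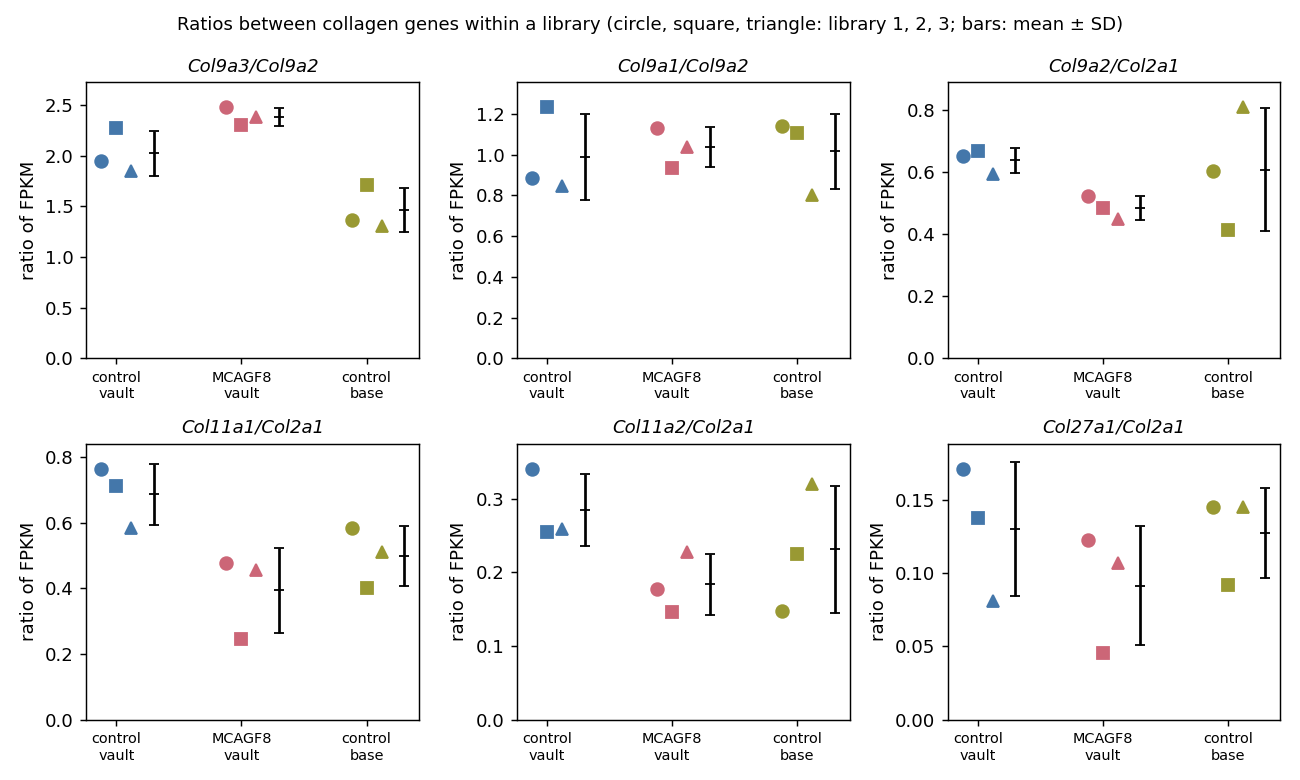
Ratios of FPKM between collagen genes within a library, 6 of the 11, with 3 libraries per group and the mean and SD beside them. Col9a3/Col9a2 separates the 3 groups (lowest 1.31 in the base, highest 2.47 in the MCAGF8 vault), Col9a1/Col9a2 overlaps throughout, and the MCAGF8 points lie below the control vault points for Col9a2, Col11a1 and Col11a2 over Col2a1.

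Expressed as shares of the summed FPKM of the 7 genes, Col2a1 took 21.6 ± 2.45% in the control vault, 26.4 ± 2.39% in the MCAGF8 vault and 25.9 ± 4.13% in the base (SD, n = 3). Col9a3 took 27.6 ± 1.79%, 30.3 ± 1.91% and 21.9 ± 1.52%, and Col11a1 took 14.7 ± 1.13%, 10.2 ± 2.76% and 12.7 ± 1.70% in the same order. The largest of these moves, Col9a3 between the MCAGF8 vault and the base, was several times its SD, while the base share of Col2a1 differed from that of the MCAGF8 vault by less than its SD.

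**Figure D5:**
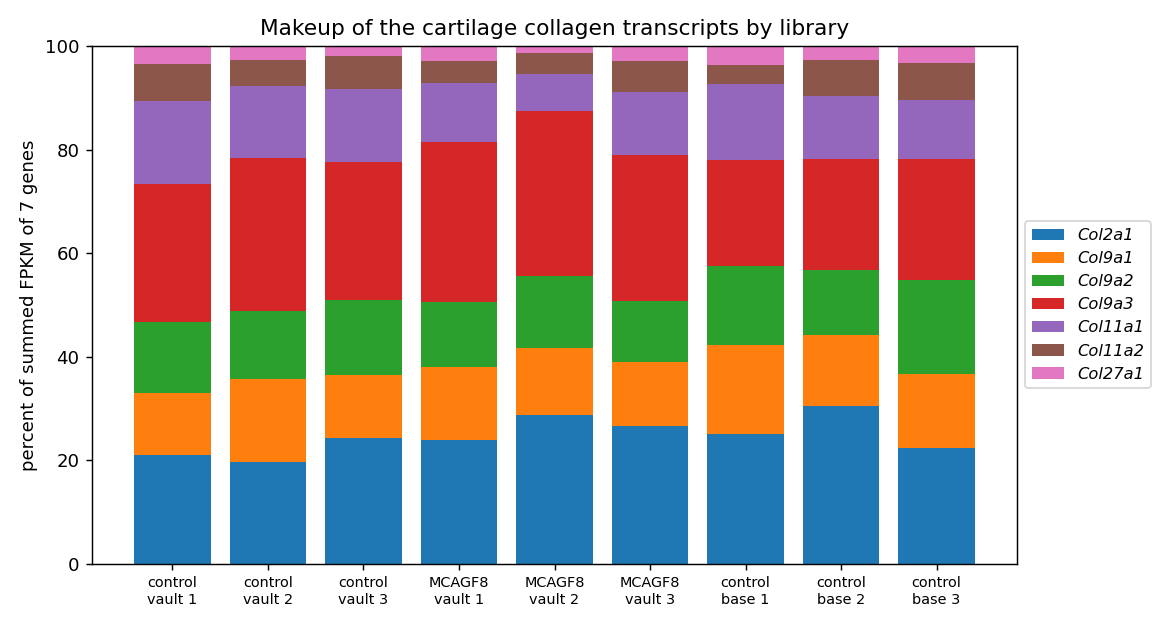
Stacked bars of each member's percent of the summed FPKM of the 7 genes, 1 bar per library. Col9a3 takes more than Col2a1 in all 6 vault libraries (group means 27.6% and 30.3%) and less than Col2a1 in base libraries 1 and 2.

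Over the 9 libraries, the genes whose log2(FPKM + 1) was most like that of Col2a1 were partly other members. Among 12931 genes with a mean of at least 5 FPKM, Col9a2 ranked 3 (Pearson r 0.983), Col9a1 ranked 4 (0.977), Col9a3 ranked 16, Col11a2 ranked 22, Col11a1 ranked 30 and Col27a1 ranked 77 (0.870). The 10 non-member genes most like Col2a1 were Acan, the aggrecan core protein (r 0.989), Slc35e3 (0.983), Rflna, Creb3l2, Extl1, Fam198a, Wwp2, Snx22, Loxl3 and Papss2, which makes the sulfate donor for proteoglycans (0.962). These coefficients describe 9 libraries that share base library 2. In the 6 vault libraries alone r was 0.982 for Col9a2, 0.965 for Col9a3, 0.899 for Col9a1 and 0.803 for Col11a2, but 0.559 for Col11a1 and 0.474 for Col27a1.

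Col2a1 is a known target of Sox9, which acts with Sox5 and Sox6. Sox9 was at 23.2, 24.6 and 21.3 FPKM in the control vault, 40.3, 63.1 and 58.9 FPKM in the MCAGF8 vault and 18.5, 80.3 and 19.96 FPKM in the base, so its libraries were ordered much as those of Col2a1. Its MCAGF8 vault minus control vault difference was 1.17 on the log2 scale (SE 0.47, limma adjusted p 0.684). In the fit to the 6 vault libraries Sox9 was called higher (SE 0.19, limma adjusted p 0.0609), beside 1.45% of all genes called. Of the 8 regulators of Col2a1 or its partners examined, 0 were called between the vaults, 7 were higher, with a median of 0.36, and Sox9, Sox5 and Wwp2 lay wholly higher, beside 9.90% of all genes. Barx1, a homeobox gene, was called lower in the MCAGF8 vault than in the base (-4.37, limma adjusted p 0.0384), beside 8.39% of all genes called. It was at 132, 15.9 and 156 FPKM in the base, lowest in base library 2, where Col2a1 was highest.

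Of the 14 matrix partners, 0 were called between the vaults and 9 were higher in the MCAGF8 vault, with a median of 0.30. In the fit to the 6 vault libraries Matn4, a matrilin, was called higher (1.42, SE 0.19, limma adjusted p 0.0433), beside 1.45% of all genes called. Matn4 was at 238, 230.1 and 251 FPKM in the control vault and 514, 819 and 626 FPKM in the MCAGF8 vault, without overlap. Acan was at 35.2, 42.8 and 32.8 FPKM in the control vault and 55.7, 87.4 and 130.6 FPKM in the MCAGF8 vault, also without overlap. These were the 2 of the 14 that lay wholly higher, beside 9.90% of all genes. Fmod, fibromodulin, lay wholly lower, at 180 to 223 FPKM in the control vault and 134 to 171 FPKM in the MCAGF8 vault. Against the base, where 8.39% of all genes were called, Matn4 (2.41) and Fmod (2.05) were called higher in the MCAGF8 vault. Snorc, a chondrocyte membrane proteoglycan (-3.85), Scrg1 (-3.21) and Comp, which binds type II and IX collagen (-3.03), were called lower. Of the 14, 7 were higher and 7 lower, with a median of -0.12. Between the control tissues Snorc (2.84) and Scrg1 (2.54) were called higher and Fmod (-2.48) lower in the base, beside 3.06% of all genes called. Snorc was at 199, 367 and 150.3 FPKM in base libraries 1, 2 and 3 and at 7.93 to 47.5 FPKM in the 6 vault libraries, and so stood apart in base libraries 1 and 3 also, where the 7 collagens were low. Col10a1, the collagen of hypertrophic cartilage, was at 115, 658 and 74.2 FPKM in the base, at 0.945 to 2.05 FPKM in the control vault and at 0.346 to 0.438 FPKM in the MCAGF8 vault.

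Among the 7 other fibril-forming collagens, 0 were called between the vaults (median -0.23), and the 3 most abundant were Col1a1, Col1a2 and Col3a1. In limma Col1a1 (-2.30), Col1a2 (-2.14), Col5a2 (-1.51), Col3a1 (-1.12) and Col5a1 (-1.06) were called lower in the base than in the control vault (adjusted p 0.0158 to 0.0969), beside 3.06% of all genes called. The same 5 were called higher in the MCAGF8 vault than in the base, by 1.22 to 1.91, beside 8.39% of all genes called. This pair of comparisons shares the base libraries. Unlike the cartilage collagens, Col1a1 was low in all base libraries, at 500.4, 629 and 1013 FPKM, against 2102 to 3913 FPKM in the 6 vault libraries. The median of the 7 cartilage collagens was 0.04 in base minus control vault and that of these 7 was -1.12, beside 0.07 for all genes. The 0.04 depended on base library 2. Without that library all 7 cartilage collagens also had negative differences, from -0.75 (Col27a1) to -1.45 (Col9a3).

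Of the 24 genes for procollagen modification, secretion and cross-linking, 0 were called between the vaults, with 6 higher, 18 lower and a median of -0.19. In the fit to the 6 vault libraries, Pcolce (-0.77), Pcolce2 (-1.31) and Loxl4 (-2.02) were called lower (limma adjusted p 0.0607 to 0.0964). Beside them, 1.45% of all genes were called in that fit in either direction. The most abundant, Serpinh1, the collagen chaperone, P4hb and Ppib, were at 1829 to 2908, 854 to 1212 and 792 to 1337 FPKM in the 6 vault libraries. In the base against the control vault, 5 were called lower, beside 3.06% of all genes called in either direction. They were Pcolce, an enhancer of C-propeptide removal (-1.67), Adamts2, which removes the N-propeptide (-1.20), Lox, the cross-linking oxidase (-1.18), and Crtap (-0.82) and P3h1 (-0.81) of the prolyl 3-hydroxylase complex. In the MCAGF8 vault against the base Adamts2 (1.64), Lox (0.96), Pcolce (0.90) and P3h1 (0.68) were called higher and Pcolce2 (-2.29), Loxl4 (-2.22) and P3h2 (-0.69) lower, beside 8.39% of all genes called. Of 6 collagen receptors, 0 were called between the vaults (6 higher, median 0.21). Itga11, an integrin subunit that binds type I collagen, was called lower in the base than in the control vault (-1.84) and higher in the MCAGF8 vault than in the base (2.13). Beside it, 3.06% and 8.39% of all genes were called in these comparisons. Itga10, an integrin subunit of chondrocytes that binds type II collagen, was at 4.39, 46.8 and 9.16 FPKM in base libraries 1, 2 and 3, in the same order as Col2a1 there.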

How the data were processed

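Stranded mRNA libraries were sequenced by the authors as single-end reads, mapped with gSNAP and quantified with Cufflinks. The deposited table gives FPKM for each Ensembl gene. For the genome build, annotation, program versions and counting strand, no value was given in the sources used here. Here, 63 rows with a repeated identifier were summed, and 9 genes with the placeholder 999999999 in 17 cells were left out. Symbols came from GENCODE M21, which matched 42384 of 43548 identifiers. After a filter at a mean of 0.5 FPKM, genes were fitted as log2(FPKM + 1) with limma 3.58.1 in R 4.3.3, with 1 mean per group, a variance trend and two-sided tests. The added 1 makes differences of low genes smaller. The limma fit took vault and base pools as independent. Fold values are ratios of mean FPKM, and ratios between genes used FPKM as deposited. Python 3.11.15, pandas 2.3.3 and scipy 1.17.1 were used. Depth is unknown, so the precision of levels is given by the SD of 3 pools. Pools are the only replicates, and p-values measure the spread between them. The members, gene lists, ratios and alternatives were chosen with earlier results of these data known. Named genes were all members, every called gene of the 5 pathway lists, up to 3 abundant examples of a list, and the 10 non-members most like Col2a1. Genes named beside these were Fgf8, the gene of the allele, and Sox9, Sox5, Col24a1, Col10a1, Itga10 and the called bone genes. These were chosen after their values were seen. Libraries were not treated as paired by the replicate number of the labels. Deviations of same-numbered libraries correlated at -0.55 to 0.37, and those of differently numbered libraries at -0.48 to 0.56. With 3 libraries per group this cannot show whether the pools were paired.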

Additional observations from a re-analysis of the deposited data

How the results depend on the processing

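With fewer or other libraries the counts of called members moved as follows. Leaving out 1 library at a time gave 0 members called between the vaults each time, 0 to 7 between the MCAGF8 vault and the base and 0 to 2 between the base and the control vault. The 7 and the 2 came without control base library 2. Without control base libraries 1 and 3 (added after the data were seen) 5 were called between the base and the control vault. The other alternatives called 0 members: pseudocounts of 0.1 and 0.01, no filter or one at 5 FPKM, quantile normalization, 2 rescalings, the 6 libraries compared only, the replicate block, no moderation, library weights, the length slope and the highest row of a repeated identifier. The number of ratios without overlap was 5 to 7, 2 to 6 and 4 to 5 in these comparisons with 1 library left out, the 6 being without control base library 2. Leaving out a library cannot make separate groups overlap. The lower ends, which are the counts with all libraries, were therefore fixed in advance. Whether the replicate numbers pair the libraries is not known. With the replicate block, 5 ratios lay on one side between the MCAGF8 vault and the base, where differences of same-numbered libraries replace overlap.

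Directions that turned were these, on the log2 scale. Between the vaults, Col11a1 was -0.14 and Col11a2 -0.052 with the length slope, Col11a2 -0.016 with library weights, and Col11a1 ran from -0.022 to 0.41 with 1 library left out. Between the MCAGF8 vault and the base, the length slope gave -0.19 for Col11a1, -0.33 for Col11a2 and -0.46 for Col27a1. Without control base libraries 1 and 3 the values were -1.34 for Col2a1, -1.20 for Col9a1, -1.11 for Col9a2, -0.63 for Col9a3, -1.42 for Col11a1, -1.65 for Col11a2 and -1.46 for Col27a1. With 1 library left out Col9a2 ran from -0.046 to 1.58, Col11a1 from -0.054 to 1.58, Col11a2 from -0.36 to 1.82 and Col27a1 from -0.25 to 1.3005. Between the base and the control vault, library weights gave -0.28 for Col2a1, -0.40 for Col9a1, -0.24 for Col9a2 and -0.21 for Col27a1, the rescalings gave -0.0046 and -0.0080 for Col9a2, and the length slope gave 0.048 for Col11a1 and 0.28 for Col11a2. Without control base libraries 1 and 3 Col9a3 was 1.59, Col11a1 1.69 and Col11a2 2.12. With 1 library left out the ranges were -0.99 to 0.91 for Col2a1, -0.89 to 0.72 for Col9a1, -0.86 to 0.77 for Col9a2, -1.45 to 0.34 for Col9a3, -1.31 to 0.32 for Col11a1, -1.35 to 0.84 for Col11a2 and -0.75 to 0.80 for Col27a1. Their causes were not tested.

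Over all genes, calls between the vaults were 113, and 191 and 192 with the smaller pseudocounts, 66 without a filter, 71 with the filter at 5 FPKM, 264 in the 6 vault libraries, 19 with the replicate block, 0 without moderation (1223 at an unadjusted p under 0.05) and 5396 with library weights, whose estimate did not converge. With 1 library left out they ran from 11 (without control vault library 1 or 3) to 273 (without control base library 2), and were 13 and 15 without MCAGF8 vault libraries 1 and 2 and 38 without library 3, so the 0.604% of all genes rests on single libraries. Against the base they were 1571, and 834 at the higher filter, 904 in 6 libraries, 918 with the block, 869 without moderation, 4381 with weights and 4561 without control base library 2, the highest with 1 library left out (lowest 587, without MCAGF8 vault library 1). Between the control tissues they were 573, and 291, 139, 234, 257, 1045 and 1335 in the same order, and 1388 with the length slope, with a lowest of 130 without control vault library 3. Rescaling to a common sum moved the median of all genes between the vaults from -0.0088 to 0.13, and all 7 members stayed higher. Against the base, calls split into 558 higher and 1013 lower, into 1153 and 810 after quantile normalization and into 768 and 817 after rescaling to a sum. Between the control tissues the split was 347 higher and 226 lower, and 236 and 390 after quantile normalization. The FPKM carry no depth, so no counting limit can be given.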
